A study of Saccharomyces cerevisiae with 18 samples.

Results

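Among the genes of S. cerevisiae, the 150 were selected whose share of the newly synthesized RNA of a library gained most when Med16 and Taf13 were depleted together. The selection used the deposited counts of sense reads, meaning reads from the strand that the gene is transcribed on, as CPM, the counts of a gene scaled to an equal total of sense reads in every library. Of 6692 gene identifiers, 4508 had a mean raw count of at least 50 over the 6 Med16/Taf13-AID libraries and an identifier starting with Y. They were ranked by the log2 ratio of the mean CPM + 1 with 3-IAA to that with DMSO. This log2 ratio is called the CPM change below, and the 150 genes are called the least reduced genes. In this strain 98.2% of the genes tested were lower with 3-IAA once the counts were scaled to a spike-in, so these are mainly genes that lost less than the others.

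The libraries are of nascent RNA labelled with 4-thiouracil for 6 min, so they report synthesis rather than standing RNA. There were 3 haploid MATa strains of the W303 background, and all of them express the rice auxin receptor OsTIR1 from the constitutive GPD1 promoter. In Spt20-AID only Spt20 carries an auxin-inducible degron (AID), a tag through which the auxin 3-IAA brings about degradation of the protein. In Med16/Spt20-AID both Med16 and Spt20 are tagged, and in Med16/Taf13-AID both Med16 and Taf13 are tagged. Each culture was divided and given 0.5 mM 3-IAA or DMSO for 30 min, with 3 biological replicates of each of the 6 groups and 18 libraries in all. No strain without a degron was analysed here, and what 3-IAA does on its own and what depletion does cannot be told apart. Each strain is known here by 1 strain name, and whether its replicates came from separate transformants is not stated.

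Med16 belongs to the tail of Mediator, the module that contacts activators, and its loss separates the tail from the rest of the complex. Taf13 is a subunit of TFIID, which delivers the TATA-binding protein to promoters and is used by most yeast genes. Spt20 is a structural subunit of SAGA, the other coactivator that delivers the TATA-binding protein. Highly expressed and inducible genes, many of which have a TATA element in their promoter, are classically described as the more SAGA-dependent part of the yeast genome, and housekeeping genes as the more TFIID-dependent part.

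The letters upstream of the least reduced genes are shown first, because the TATA element is a feature that the choice of the genes did not use. The element was searched as 8 bases, TATA followed by A or T, then A, then A or T, then A or G, on both strands of the 250 bases before the start codon. The windows below hold 30 bases of the R64 reference genome (the sacCer3 build, from strain S288C and not W303), read along the gene from 5′ to 3′, with the element in capitals. They belong to genes whose values are given later.
FLO11 (chrIX:393756-393785, minus strand): taaaataaacgTATAAAAAgcaccctattc
ADH5 (chrII:533630-533659, plus strand): catactacgaaTATAAAAGagggactacaa
ARG4 (chrVIII:141503-141532, minus strand): aaaaaaaggatTATAAAAGgtcagcgaagc
BDF2 (chrIV:330918-330947, plus strand): aagagattttaTATATAAGgcgggcgcggt
TDH1 (chrX:338108-338137, plus strand): tctcgaaatcaTATAAATAgacaatatatt
TDH2 (chrX:454797-454826, minus strand): gtttggaagaaTATATAAAggttgcactca
ADH1 (chrXV:160704-160733, minus strand): ttgctatcaagTATAAATAgacctgcaatt
PCL1 (chrXIV:87726-87755, plus strand): ataggaaaacaTATATAAGgtcaataggcc
PUT4 (chrXV:988874-988903, minus strand): gtacttctataTATATATAgggggtttgtg
OPT2 (chrXVI:927156-927185, minus strand): tcaaaaaaattTATAAATGggaatggaaca
Such an element was found for 102 of the 148 least reduced genes with an annotated start, which is 68.9%. The share was 34.3% of 4503 genes meeting the count minimum, 36.5% of all 6004 annotated promoters of the same length, and 30.7% of the 150 genes with the lowest CPM change. NRD1, which ranked next to FLO11, had no match in its window. A match describes letters only, and the start codon, not the transcription start, was used as the reference point.

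The Gcn4 element TGACTCA stood in 12 promoters of the least reduced genes (8.11%), against 2.24% of the genes meeting the count minimum. Gcn4 is the activator of amino acid biosynthesis genes. The heat shock element, written as GAA, any 2 bases and TTC, was found in 6.08% against 10.4%. The MluI element ACGCGT, found at genes of DNA replication, was found in 0.676% against 2.98%, and the stress response element CCCCT in 23.0% against 18.3%. Position differed as well. Of the least reduced genes, 12 (8.11%) lie within 20 kb of a chromosome end, against 1.60%, and the median distance to the next gene upstream was 673 bases against 420. The median coding length was similar, 1314 and 1362 bases.

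In Med16/Taf13-AID the CPM change of the 150 genes ranged from 0.60 to 2.0 with a median of 0.84, against a median of -0.15 over all 4508 genes. These values chose the genes and are given as a description. The genes just inside the limit were COS10, MET3 and HTA1, at 0.61, 0.61 and 0.60, and those just outside were RPL41B, DIA2 and SDT1, at 0.60 each. The limit therefore falls in a continuous range of values and not at a gap. The least reduced genes supplied 5.91 to 6.77% of sense reads with DMSO and 11.7 to 11.8% with 3-IAA.

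With counts scaled to the S. pombe spike-in, which keeps a loss common to all genes visible, the median log2 fold change of the same genes was -0.68. Over all 4508 genes the median was -1.67 and over the 150 most reduced genes it was -2.43. Of the least reduced genes, 132 were lower with 3-IAA in each of the 3 same-numbered pairs and 3 were higher in each. The fitted value was above 0 for 6 genes, FLO11, NRD1, HRP1, PUT4, GAS2 and RRI2. In 123 genes all 3 libraries with 3-IAA lay below all 3 with DMSO. That was the case for 99.4% of the genes meeting the count minimum.

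**Figure D1:**
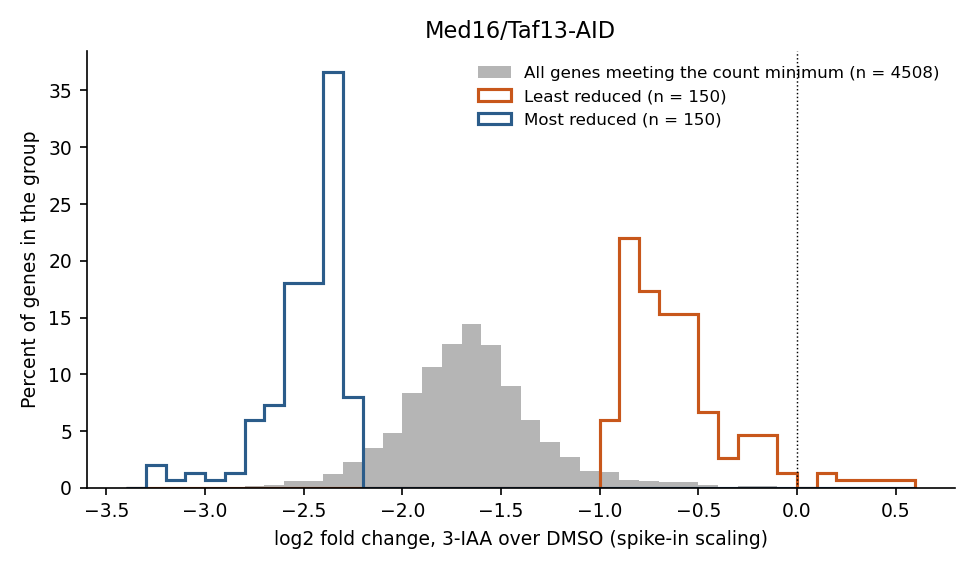
Distribution of the log2 fold change with 3-IAA in Med16/Taf13-AID, with spike-in scaling, as the percent of genes in each group per bin. The filled bars are 4508 genes, with a median of -1.67, and the outlines are the 150 least reduced genes (median -0.68) and the 150 most reduced genes (median -2.43).

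FLO11 codes for the cell surface flocculin used in adhesion and filamentous growth. Its normalized counts in Med16/Taf13-AID were 2619.5, 1896 and 1768 with DMSO and 3365, 3014 and 2510.3 with 3-IAA, a fitted log2 fold change of 0.50 ± 0.14 (SE). The libraries overlapped, since the highest with DMSO exceeded the lowest with 3-IAA. In the other strains the same gene had few counts with DMSO, 5.43, 8.30 and 2.40 in Spt20-AID against 31.9, 30.1 and 26.2 in Med16/Spt20-AID. Normalized counts of genes in general were also higher with DMSO in Med16/Spt20-AID than in Spt20-AID.

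NRD1 and HRP1 code for RNA-binding proteins of 3′-end formation, Nrd1 in the complex that ends transcription of many non-coding RNAs and Hrp1 in cleavage factor I. NRD1 had normalized counts of 398, 509 and 417 with DMSO and 676, 628 and 499 with 3-IAA in Med16/Taf13-AID. HRP1 had 724, 930.3 and 814 with DMSO and 1178, 1011 and 1003 with 3-IAA. The HRP1 groups did not overlap, and the NRD1 groups overlapped through the lowest library with 3-IAA. No other gene of the transcription termination list of 13 was among the least reduced genes, and the median log2 fold change of the list was -1.21.

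PUT4, the proline permease, had 215, 345 and 285 with DMSO and 332, 345 and 309 with 3-IAA, and both groups overlapped. GAS2, a glucanosyltransferase of the spore wall, and RRI2, a subunit of the COP9 signalosome, had fitted values of 0.19 and 0.14. ADH5, an alcohol dehydrogenase, SRO77, an exocytosis protein, BSC1, ARG4, the argininosuccinate lyase, BDF2 and YPL245W lay between -0.15 and -0.09. BDF2 codes for a bromodomain protein that associates with TFIID. In this strain its counts were 1249, 1361 and 1199.6 with DMSO and 1197, 1119 and 1116 with 3-IAA, with all libraries of the treatment lower.

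**Figure D2:**
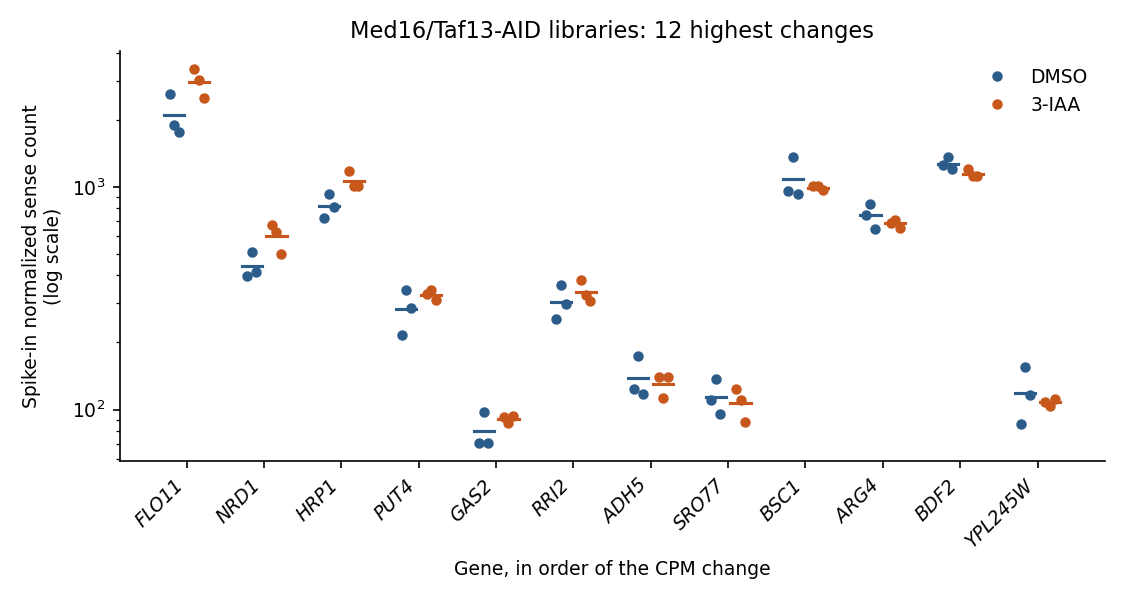
Spike-in normalized sense counts (log axis) of the 12 genes with the highest CPM change in the 6 Med16/Taf13-AID libraries. Each point is 1 library and each short line the mean of 3; the means with 3-IAA are above those with DMSO for the first 6 genes, FLO11 to RRI2.

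To see how far the ranking repeats, the list was chosen again from 2 of the 3 pairs and measured in the pair left out. The median CPM change in the left-out pair was 0.881, 0.807 and 0.804, while the median over all genes was -0.148, -0.132 and -0.161. Of the 150 genes chosen each time, 150, 149 and 150 were above the median of all genes in the pair left out. The 3 lists shared 139, 130 and 137 genes with the full one. A pair left out comes from the same strain, so this covers the spread between libraries and nothing wider.

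Several other measurements moved with the treatment in this strain. The libraries with 3-IAA held 874975 to 1029147 sense reads and those with DMSO 1947787 to 2366418. Antisense reads were 8.21 to 8.46% of strand-assigned reads with 3-IAA and 5.83 to 5.96% with DMSO. Reads mapping to several places, which are counted on no gene, were 4.00 to 4.36 times the sense reads with 3-IAA and 1.41 to 1.78 times with DMSO. The 3 genes of the mitochondrial genome that met the count minimum, which are made by another RNA polymerase and could not be chosen, had CPM changes of 1.28 to 1.40 and a median spike-in log2 fold change of -0.13. The part of each of these in the ranking was not tested.

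The least reduced genes were unevenly spread over gene groups. Against 3.33% of all genes meeting the count minimum, the list of glycolysis and fermentation had 15 of 19 genes among them, Ty retrotransposon open reading frames 9 of 13, methionine and sulfur assimilation 13 of 21 and histones 6 of 10. Amino acid permeases had 5 of 16, cyclins and cell cycle regulators 4 of 21, and amino acid biosynthesis 5 of 57. Ribosomal proteins had 2 of 136. No member came from ribosome biogenesis (0 of 44), the chaperones driven by Hsf1 (0 of 25), ergosterol synthesis (0 of 25), the respiratory chain (0 of 34) or the subunits of Mediator, SAGA and TFIID (0 of 48). Other lists also held none, among them oxidative stress defence (0 of 21) and the tricarboxylic acid cycle (0 of 18). At a share of 3.33% lists of these sizes would hold few genes, so a count of 0 says little. In all, 74 of the 150 genes were in at least 1 of 28 lists. The lists were drawn up with earlier results of these data known, so these shares are given as a description.

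**Figure D3:**
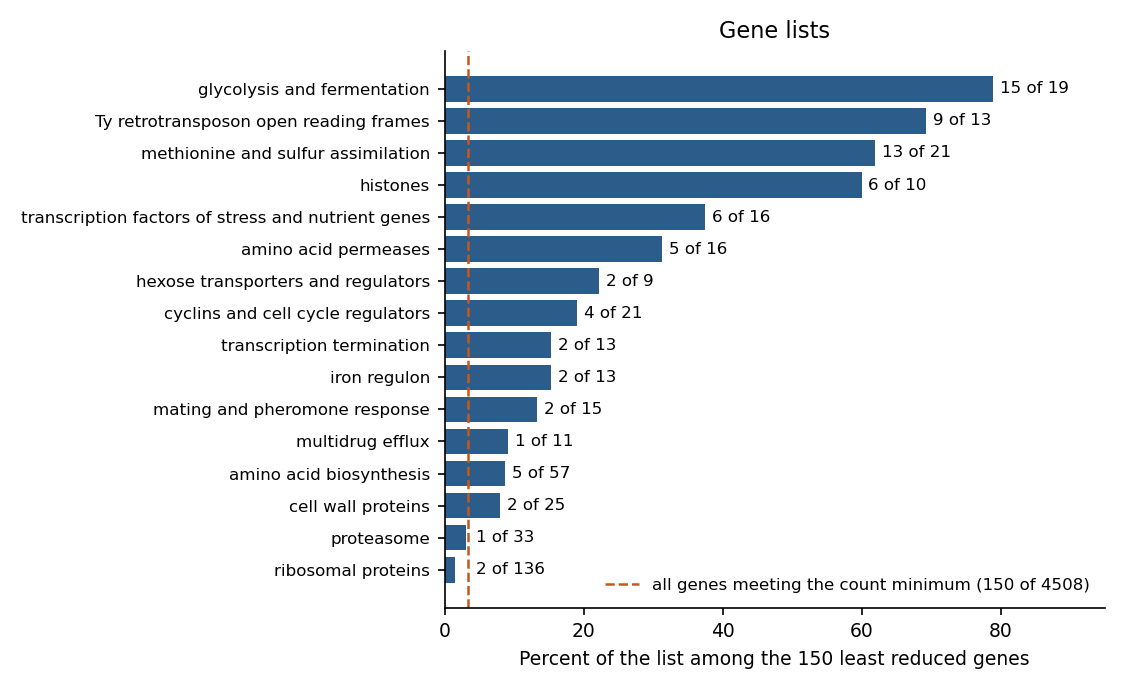
Percent of each gene list that is among the 150 least reduced genes, counting only genes that meet the count minimum; the number beside each bar gives the genes. The dashed line is the share over all 4508 genes, 3.33%. Lists with none of these genes are not drawn.

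Levels under DMSO in the Spt20 strains, which the choice did not use, spread more widely than over the genome. The median CPM per kb of coding sequence was 121, against 97.4 over the genes meeting the count minimum and 69.4 over the 150 most reduced genes. Above 1000 CPM per kb there were 19 of 147 least reduced genes (12.9%), against 2.55% of the genes meeting the count minimum. The interquartile range was 49.3 to 349 CPM per kb, against 59.2 to 179 over the genes meeting the count minimum. The 6 with the highest count in Spt20-AID with DMSO were all of glycolysis and fermentation, TDH3, FBA1, CDC19, PGK1, ENO2 and PDC1.

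The Spt20 strains show how the same genes responded when Spt20 was depleted, alone or together with Med16. They are separate strains, and none with Med16 alone tagged was analysed, so a difference between them cannot be assigned to loss of Med16. Their 12 libraries played no part in the choice. With spike-in scaling, 56 of the 150 least reduced genes (37.3%) were lower with 3-IAA in Spt20-AID and 37 were higher. Over all 5567 genes tested, 8.08% were lower and 54.0% were higher. The median log2 fold change was -0.13 for the least reduced genes, 0.37 for the genes meeting the count minimum and 0.39 for the most reduced genes. With TMM scaling, which sets the bulk of genes to no change and lowers values in this strain by a median of 0.37, 95 were lower and 15 higher, against 25.1% and 17.1% of all genes. The share called lower was above that of all genes under both scalings. Pair 3 stood apart in this strain. The median of the least reduced genes was -0.25, -0.42 and 0.31 in the 3 pairs, and that of the genes meeting the count minimum 0.23, 0.10 and 0.75. Without replicate 3, 69 genes were lower and 20 higher.

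In Med16/Spt20-AID, 68 of the 150 genes (45.3%) were lower with 3-IAA and 38 were higher, against 10.3% and 46.2% of all genes tested. The median was -0.23, and 0.30 over the genes meeting the count minimum. With TMM scaling, which lowers values here by a median of 0.29, 91 were lower and 17 higher, against 21.6% and 11.9%. The medians of the 3 pairs were close, -0.29, -0.15 and -0.25. The count of genes called higher was 18 without replicate 2 and 18 without replicate 3.

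**Figure D4:**
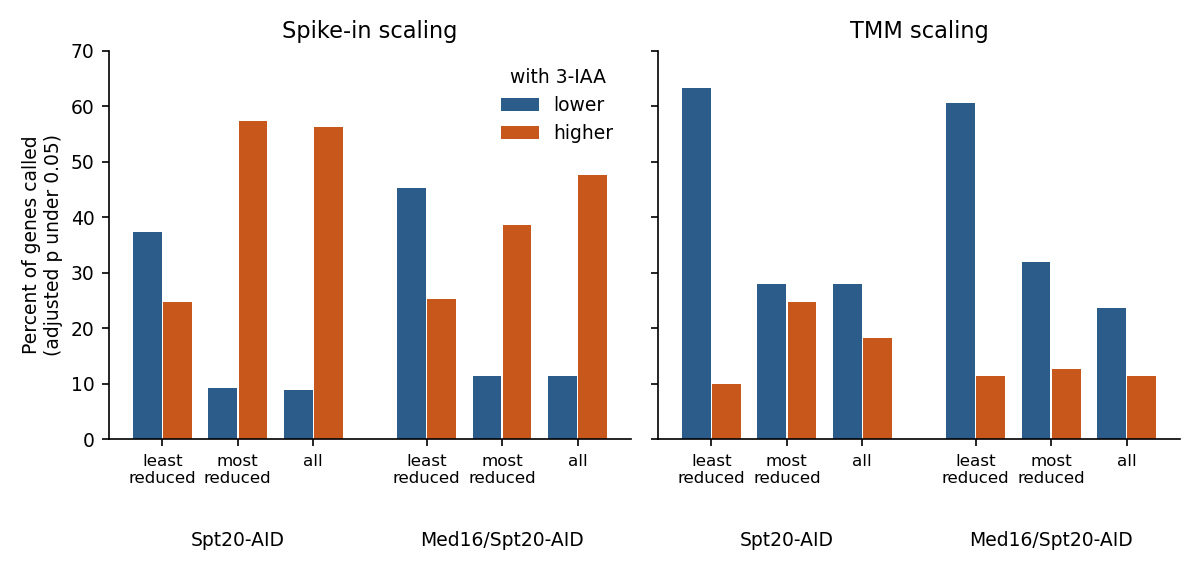
Percent of genes called lower or higher with 3-IAA (adjusted p under 0.05, edgeR) in each Spt20 strain, for the 150 least reduced genes, the 150 most reduced genes and all 4508 genes meeting the count minimum, under each scaling. With spike-in scaling the least reduced genes were called lower in 37.3% and 45.3% of cases, against 8.90% and 11.3% of the 4508 genes.

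Calls in both strains were then compared gene by gene. There were 47 genes lower in both strains (31.3%, against 7.59% of the 4508 genes), 26 higher in both (17.3%, against 36.8%) and 28 called in neither (18.7%, against 20.8%). Another 3 genes, PUT4, OPT2 and PIR3, were lower in Spt20-AID and higher in Med16/Spt20-AID (2.0%, against 0.089%), and 1, ATG41, was the reverse (0.67%, against 0.47%). The TATA element stood in 34 of the 47 genes lower in both strains (72.3%), in 13 of the 26 higher in both and in 55 of 75 others with an annotated start. Each strain had its own DMSO libraries, so these comparisons share none.

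TDH1 had the largest decrease of the 150 genes in Spt20-AID. It codes for a glyceraldehyde-3-phosphate dehydrogenase of glycolysis, along with TDH2 and TDH3. Its counts in Spt20-AID were 1776, 2276 and 1816 with DMSO and 293, 286 and 428 with 3-IAA, a log2 fold change of -2.55 ± 0.15 (adjusted p = 1.24e-58). In Med16/Spt20-AID they were 2749, 2454 and 3029 with DMSO and 944, 828 and 815 with 3-IAA, a change of -1.67 ± 0.15 (adjusted p = 6.42e-28). In neither strain did the groups overlap. In Med16/Taf13-AID the same gene had 1609.9, 3248 and 1836 with DMSO and 1782, 1923 and 1810.2 with 3-IAA, where the groups did overlap. TDH2 changed by -0.92 and -0.57 in the Spt20 strains, while TDH3 did not pass the test in either, at 0.14 ± 0.16 and -0.04 ± 0.16.

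The 15 glycolytic and fermentative genes held 11 that fell in Spt20-AID, and 11 that fell in Med16/Spt20-AID. The whole list has 19 genes meeting the count minimum. Of these 19, 14 were called lower when Spt20 alone was tagged and 15 in the strain with both tags. The fall was therefore not particular to the least reduced genes of the list. ADH1, the alcohol dehydrogenase of ethanol production, changed by -1.32 in Spt20-AID and by -0.63 in Med16/Spt20-AID on the log2 scale. FBA1, the aldolase, changed by -0.89 and -0.65, and TPI1, the triose phosphate isomerase, by -0.91 and -0.75. PYK2, the pyruvate kinase isoform used at low flux, did not pass the test in Spt20-AID and rose in Med16/Spt20-AID by 0.78 ± 0.15 (adjusted p = 1.86e-06), where TDH3, ENO2 and CDC19 did not pass it. With TMM scaling 14 of the 15 fell in each strain. The count in Spt20-AID was 7 without replicate 1 and 6 without replicate 2. Several of these genes have a close paralog, and reads shared by paralogs are counted on neither, so the values of ENO1 and ENO2, of the TDH genes and of the histones below rest on the bases in which the copies differ.

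All 6 histone genes of the group fell in both strains, HTA1, HTA2, HTB2, HHT1, HHF1 and HHF2, with a median of -0.95 in Spt20-AID compared with -0.68 in Med16/Spt20-AID. Of all 10 genes of the histone list, 9 fell in each strain, so the fall was not particular to the least reduced genes. HTA2 and HTB2, which code for H2A and H2B, are divergent neighbours, 699 bases apart, as are HHF1 and HHT1 for H4 and H3, 646 bases apart. HTB2 had counts of 930.1, 953 and 572 with DMSO and 372, 346 and 456 with 3-IAA in Spt20-AID, without overlap. All 6 were also lower under TMM scaling and without any 1 of the Spt20-AID replicates. In Med16/Spt20-AID 5 passed the test without replicate 1 and 5 without replicate 3.

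The 13 genes of methionine synthesis and sulfur assimilation did not move as 1 group. In Spt20-AID 3 rose and 4 fell, and in Med16/Spt20-AID 2 rose and 7 fell. MET13, a methylenetetrahydrofolate reductase, rose in Spt20-AID by 0.81 ± 0.15 (adjusted p = 1.25e-06), and MET10, of sulfite reductase, by 0.61 ± 0.14 (adjusted p = 1.25e-04). MET3, the ATP sulfurylase that begins the pathway, changed by -0.87 in Spt20-AID and by -1.27 in Med16/Spt20-AID. The directions depended on scaling, since with TMM 1 rose and 9 fell in Spt20-AID and 0 rose and 10 fell in Med16/Spt20-AID. In the latter strain 1 rose and 4 fell without replicate 1, and 0 rose without replicate 2 and 0 without replicate 3. Of all 21 genes of the list meeting the count minimum, 5 rose and 7 fell in Spt20-AID with spike-in scaling. In Med16/Spt20-AID 4 of the 21 rose and 12 fell.

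Of the 9 Ty open reading frames, 2 fell in Spt20-AID and 8 fell in Med16/Spt20-AID, and none was called in the interaction test of the difference. With TMM scaling 5 and 8 fell. Only 13 of 89 such frames met the count minimum, and reads that fit several Ty copies are not counted. The median was -0.30 in Spt20-AID compared with -0.64 in Med16/Spt20-AID. Without replicate 2, 1 fell in Spt20-AID and the median there was 0.034. For Med16/Spt20-AID the count was 4 without replicate 1 and 5 without replicate 3. Frames of the same element overlap on 1 strand, so they are not independent measurements.

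BSC1, a gene similar to FLO11 that in W303 forms 1 continuous reading frame with its neighbour PRM7, also among the 150 genes, fell in Spt20-AID. Its counts were 183, 340.3 and 208 with DMSO and 52.7, 64.8 and 95.3 with 3-IAA (adjusted p = 1.84e-24). SRL3, a repressor of the start of the cell cycle, changed by -1.56 ± 0.17 in Spt20-AID and by -1.33 ± 0.16 in Med16/Spt20-AID. GAP1, the general amino acid permease, changed by -1.44 in Spt20-AID, from 471, 580.1 and 321 to 192, 136 and 175. BDF2 changed by -1.09 and -0.79 in the 2 strains. In each of these, no library with 3-IAA in Spt20-AID reached the lowest with DMSO.

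PCL1, a G1 cyclin of the kinase Pho85, had the largest decrease of the 150 genes in Med16/Spt20-AID. Its counts there were 474, 385 and 361 with DMSO and 102, 131 and 110.4 with 3-IAA, a change of -1.82 ± 0.16 (adjusted p = 7.89e-27). In Spt20-AID the change was -1.29 ± 0.16 (adjusted p = 4.68e-14). PRM4, a pheromone-regulated gene, changed by -1.30 in Spt20-AID and by -1.76 in Med16/Spt20-AID. RSB1, an efflux protein for sphingoid bases, changed by -1.46 in Med16/Spt20-AID and by -0.53 in Spt20-AID, where the call was lost without replicate 1.

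Some of the least reduced genes rose with Spt20 depletion. SRO77 rose from 53.0, 49.0 and 42.8 to 83.5, 90.8 and 116 in Spt20-AID, a change of 1.00 ± 0.19 (adjusted p = 2.48e-06). PHD1, an activator of pseudohyphal growth that regulates FLO11, rose by 0.94, PKP2, a kinase of the pyruvate dehydrogenase complex, by 0.93, and ARG7, of arginine synthesis, by 0.87. In Med16/Spt20-AID the largest increases were those of PUT4, FLO11, PYK2, OPT2 and KAP122, the last a nuclear transport receptor, which rose by 0.71. NRD1 rose in both strains, by 0.54 ± 0.15 in Spt20-AID (adjusted p = 0.00118) and 0.66 ± 0.14 in Med16/Spt20-AID (adjusted p = 4.66e-05). Its call in Spt20-AID was lost with TMM scaling, at 0.17. HRP1 did not pass the test in either strain, at -0.18 ± 0.14 and -0.03 ± 0.14.

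FLO11 rose in Med16/Spt20-AID, from 31.9, 30.1 and 26.2 to 53.6, 91.0 and 68.3, without overlap (adjusted p = 6.14e-08). In Spt20-AID its counts were 5.43, 8.30 and 2.40 with DMSO and 4.51, 8.01 and 16.8 with 3-IAA, a change of 0.92 ± 0.39 (adjusted p = 0.0329). There the groups overlapped, and without replicate 3 the value was -0.06.

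The interaction contrast tests whether the response in Med16/Spt20-AID differs from that in Spt20-AID, the strain in which Med16 is not tagged. It cannot separate loss of Med16 from other differences between the strains. Of the 150 genes, 8 (5.33%) had a higher response in Med16/Spt20-AID and 9 (6%) a lower one, against 0.611% and 2.64% of all genes tested. With TMM scaling the counts were 24 and 14 (16% and 9.33%), against 8.19% and 7.24%. Without replicate 3 of Spt20-AID, 26 of the least reduced genes had a higher response. Of the 150 most reduced genes, 0 were called higher and 9 lower, and with TMM scaling 12 and 19. The lower calls were therefore not particular to the least reduced genes.

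PUT4 differed most. Its counts in Spt20-AID were 54.3, 63.9 and 45.7 with DMSO and 30.8, 30.7 and 39.7 with 3-IAA, a change of -0.68 ± 0.20 (adjusted p = 0.00226), a call that was lost without replicate 2. In Med16/Spt20-AID they were 493, 515 and 423 with DMSO and 1483, 1529 and 1377 with 3-IAA, a change of 1.62 ± 0.14 (adjusted p = 1.04e-27). The groups overlapped in neither strain, and the difference between the strains was 2.30 ± 0.25 (adjusted p = 1.18e-17). Its level with DMSO was also higher in Med16/Spt20-AID, in every library. Normalized counts with DMSO were higher there for genes in general. The median log2 normalized count of the genes meeting the count minimum was 9.16 to 9.38 there and 8.06 to 8.35 in Spt20-AID.

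OPT2, an oligopeptide transporter, had 23.5, 31.5 and 26.9 with DMSO and 13.5, 11.3 and 13.2 with 3-IAA in Spt20-AID. In Med16/Spt20-AID it had 284, 244 and 201 with DMSO and 461, 398 and 369.6 with 3-IAA, and the difference was 1.85 ± 0.31 (adjusted p = 6.54e-07). When the reads of both strands were counted together, its value in Spt20-AID turned to 0.46 and the difference no longer passed the test. PIR3, a cell wall protein, and NRG2, a repressor of glucose-regulated genes, differed by 1.30 ± 0.24 (adjusted p = 1.18e-05) and 1.07 ± 0.27 (adjusted p = 0.00442). The NRG2 call was lost without Spt20-AID replicate 1. The increase of PIR3 in Med16/Spt20-AID, 0.42, was not called with TMM scaling or without any 1 replicate of that strain.

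ATG41, required for autophagy, went the other way. Its counts in Spt20-AID were 923, 764 and 942 with DMSO and 1406, 1189.7 and 1729.5 with 3-IAA, and in Med16/Spt20-AID 2046, 1873 and 1526 with DMSO and 1109, 1349 and 1042 with 3-IAA. Neither strain's groups overlapped, and the difference was -1.35 ± 0.20 (adjusted p = 3.86e-09). CIN5, a leucine zipper transcription factor of drug and salt tolerance, differed by -0.95 ± 0.21 (adjusted p = 3.27e-04), with a fall to 677, 639 and 593 from 1433, 1275 and 1107 in Med16/Spt20-AID. RSB1 differed by -0.93 ± 0.25 and YBR099C, an identifier without a place in the R64 annotation, by -0.96 ± 0.29. The RSB1 call was lost without replicate 2 of either strain, and that of YBR099C without replicate 3 of Spt20-AID or any 1 replicate of Med16/Spt20-AID.

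**Figure D5:**
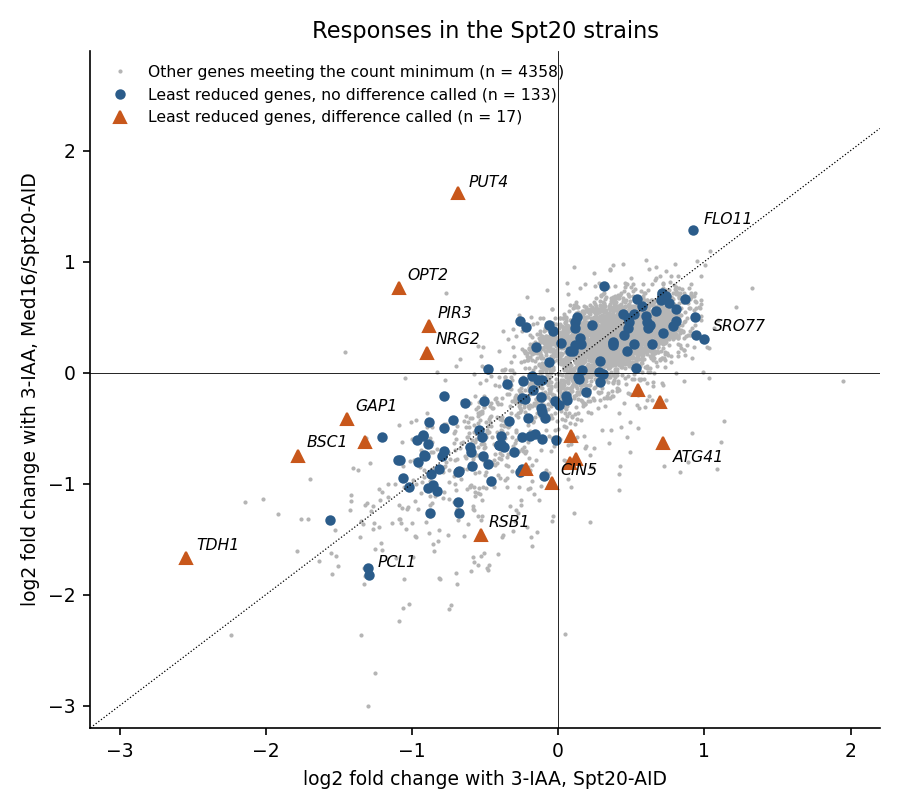
Log2 fold change with 3-IAA in Spt20-AID (horizontal) and Med16/Spt20-AID (vertical), with spike-in scaling, for the 150 least reduced genes over the other 4358 genes meeting the count minimum; the dotted line marks equal values. Triangles are the 17 genes called in the interaction, with PUT4 (-0.68 and 1.62), OPT2 and PIR3 at the upper left and ATG41 (0.72 and -0.64) in the lower right.

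Some counts cannot be assigned to 1 transcript. Of the least reduced genes, 12 of 148 overlap another annotated gene (8.11%), against 1.69% of the genes meeting the count minimum. YGL088W overlaps the small nucleolar RNA gene SNR10, IRC13 overlaps SNR17A, and YOR302W is the upstream reading frame of CPA1. Among the 150 genes, 9 pairs are neighbours with no annotated gene between them, and the share of such pairs over all genes was not counted. PYK2 and PUT4 lie on the same strand, 436 bases apart, as do MMO1 and PHD1, 105 bases apart. TDH2 and MET3 lie on opposite strands, 1557 bases apart, and sense counts keep them separate.

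The depleted subunits have their tag on the protein, and their own RNA did not test the labels. TAF13 had a mean of 90.3 ± 15.4 (SD, n = 3) normalized counts with DMSO and 23.1 ± 6.45 with 3-IAA in Med16/Taf13-AID. SIN4, the gene of Med16, had 823 ± 85.1 and 289.9 ± 31.8 there, and SPT20 265.6 ± 12.9 and 439.5 ± 54.1 in Spt20-AID. The MATa label was met, since the a-specific markers summed to 1240 to 2590 CPM in the libraries and the alpha-specific ones to 20.1 to 68.7 CPM.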

How the data were processed

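For each of 18 libraries the authors used STAR 2.6.1a and the sacCer3 genome, and deposited raw read counts per gene, for both strands together and for each strand, without normalization. The counts of the strand opposite to the read, which is the sense strand here, were used. The deposited counts hold no S. pombe genes. Size factors based on the spike-in were therefore obtained by a least-squares fit of the deposited counts to the mean normalized counts in the study's own table, of which a shortened copy with 1999 genes was used (1950 in the fit). A model with a term for each of the 6 combinations of strain and treatment was fitted to 5567 genes, those whose sense counts averaged 10 or more, in edgeR 4.0.16 under R 4.3.3. The quasi-likelihood test of edgeR gave the p-values. They were adjusted by the method of Benjamini and Hochberg over these 5567 genes, and 0.05 was the threshold. Values after ± are standard errors of fitted log2 fold changes, or SD of counts where stated.

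The Med16/Taf13-AID contrast chose the genes and was not used as a test of them. The members and all gene lists were chosen with earlier results of these data known. The names of the deposited Med16/Taf13-AID tables start with another prefix than those of the other strains, and what it marks is not stated. Named genes were the 12 highest CPM changes, the 3 on either side of the limit, the 6 highest levels, the 5 largest called increases and decreases with 1 direction in all pairs for each Spt20 strain, the 4 most different genes in each direction of the interaction, list members with the highest CPM change and the depleted subunits. Neighbours, overlapping genes, genes with opposite calls and other examples were named after their values were seen. The R64 annotation of RefSeq supplied gene names, coordinates and promoters, and 6008 of 6692 identifiers were found in it. The libraries held 874975 to 6189719 sense reads. Alternatives were size factors by TMM or by median of ratios, DESeq2 1.42.0 with its Wald test, no count filter, counts of both strands, the replicate number as a block, a fit of 12 libraries and each replicate left out. TMM together with the block was chosen after seeing the data. The test was tried on simulated data. Summaries used Python 3.11.15, pandas 2.3.3, numpy 2.4.6 and matplotlib 3.10.9.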

Additional observations from a re-analysis of the deposited data

Results flagged for a closer look

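The response to 3-IAA differed between the Spt20 strains, by the interaction test of edgeR, for 12 of the genes named above. The value is the log2 fold change in Med16/Spt20-AID minus that in Spt20-AID. It was higher in Med16/Spt20-AID for PUT4 (2.30), OPT2 (1.85), PIR3 (1.30), NRG2 (1.07), BSC1 (1.03), GAP1 (1.02), TDH1 (0.87) and ADH1 (0.69). It was lower for ATG41 (-1.35), YBR099C (-0.96), CIN5 (-0.95) and RSB1 (-0.93). The calls of PUT4, PIR3, CIN5 and ATG41 held in each alternative run. Those of BSC1, GAP1 and TDH1 were lost without Spt20-AID replicate 2, at 0.67, 0.69 and 0.65. That of ADH1 was lost with the replicate block and without each replicate except Spt20-AID replicate 3. That of NRG2 was lost without Spt20-AID replicate 1 and with the reads of both strands, and that of OPT2 with the reads of both strands, at 0.28. Those of BSC1 and TDH1 were also lost with DESeq2. RSB1 and YBR099C lost theirs without single replicates, as given above.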

How the results depend on the processing

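The counts of least reduced genes called in the Spt20 strains depended mainly on scaling and on single replicates. In Spt20-AID 37 genes rose and 56 fell with spike-in scaling. The counts were 15 and 95 with TMM, 16 and 94 with median-of-ratios factors, and 20 to 39 and 43 to 69 with 1 replicate left out. In Med16/Spt20-AID 38 rose and 68 fell, with 17 and 91 under TMM, 18 and 90 under median-of-ratios, and 18 to 30 and 56 to 60 with 1 replicate left out. The difference between the strains was higher for 8 genes and lower for 9, and for 24 and 14 under TMM, 25 and 14 under median-of-ratios, and 4 to 26 and 4 to 12 with 1 replicate left out. DESeq2, no count filter, both strands and a fit of the 12 Spt20 libraries kept each of these counts within 1.5 times. Chosen again with a minimum mean count of 200, the list shared 88 genes with the 150. With 1 replicate left out it shared 130 to 139.

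Cells were divided between 3-IAA and DMSO per the methods, and whether equal replicate numbers mark 1 culture is not stated. The correlations of the deviations of same-numbered libraries, as a check of the pairing, were 0.33, 0.021 and 0.18 for Spt20-AID, 0.35, 0.35 and 0.20 for Med16/Spt20-AID, and 0.13, 0.14 and 0.018 in Med16/Taf13-AID. In each strain every library with 3-IAA correlated best with the DMSO library of its own number. A replicate block gave 37 genes that rose and 56 that fell in Spt20-AID, 37 and 67 for Med16/Spt20-AID, and 7 and 6 for the difference. TMM together with the block, chosen after seeing the data, gave 20 and 104, 21 and 95, and 34 and 24. Several values changed sign, and not all of them are given here. The median of the 9 Ty frames in Spt20-AID was 0.034 without replicate 2. FLO11 in Spt20-AID lay between -0.063 without replicate 3 and 1.42 without replicate 2. OPT2 in Spt20-AID was 0.46 with both strands. Some list medians near 0 in Spt20-AID also turned. That of the 2 ribosomal protein genes was 0.065 with spike-in scaling and -0.296 with TMM. Why these values moved was not tested. The least deeply read libraries, those of Med16/Taf13-AID with 3-IAA, are the ones that chose the genes, and a mean raw count near 50 limits the precision of their rank. The size factors carry the error of the spike-in, which each gene of a library shares.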

Other observations

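A few smaller groups among the least reduced genes were counted beside the main ones. From the list of transcription factors of stress and nutrient genes, 6 of 16 were among the 150 genes, NRG1, NRG2, RPN4, HAP4, CIN5 and MET28. RPN4, the activator of proteasome genes, rose in Spt20-AID by 0.55 ± 0.15 (SE) and had -0.16 ± 0.15 in Med16/Spt20-AID. With TMM scaling it did not pass the test in Spt20-AID, at 0.17, and was called lower in Med16/Spt20-AID, at -0.44. With spike-in scaling its response differed between the strains by -0.70 ± 0.21 (adjusted p = 0.0255, interaction test of edgeR). Only 1 of 33 genes in the proteasome list, RPN4 itself, was a least reduced gene. ARN1 and HMX1, of iron uptake and heme breakdown, fell in both Spt20 strains, as did PRM4 and SST2 of the pheromone list. Of the iron pair 1 gene was called in Med16/Spt20-AID without replicate 2 or without replicate 3. Of the pheromone pair 1 was called without replicate 1 or without replicate 2 of either strain. The hexose list gave no transporter, only the regulators MIG2 and STD1.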
